A study of Mus musculus with 4 samples.

Results

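N6-methyladenosine (m6A) peaks on 8 genes of cholesterol synthesis and of its control by SREBP2 were examined in mouse liver. The members were Srebf2, Scap, Insig1, Insig2, Nsdhl, Mvk, Mvd and Idi1. They were chosen by symbol with earlier results of these data known, so the counts of members with a peak are descriptions. Their peaks are the entries of both deposited peak lists that carry one of these symbols. All 8 members had a peak, among 9650 genes with a peak in either list, and they held 16 of 28750 peaks, 6 in the control list and 10 in the knockout list. The lists came from methylated RNA immunoprecipitation sequencing (MeRIP-seq), in which fragmented RNA is pulled down with an antibody to m6A and sequenced beside untreated input. A peak is a stretch of exon that is richer in immunoprecipitated (IP) reads than in input reads.

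The control group was Alkbh5flox/flox mice (FF), which carry a floxed Alkbh5 gene, and the other group was the Alkbh5 knockout labelled Alkbh5-HKO (HKO, not written out in the labels). ALKBH5 demethylates m6A in RNA, and the study asked which m6A marks of liver RNA depend on this enzyme. The mice were 9 weeks old and had eaten normal chow. RNA of 3 mice was pooled for each genotype, giving 1 IP and 1 input library, and 1 peak list, per genotype. There was thus no replicate, no difference between the lists could be set against a replicate spread, and genotypes are compared without p-values. The Cre driver and the deleted part of Alkbh5 are not given in the sources used here.

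Cholesterol is built from acetyl-CoA through mevalonate, isoprenoids and a long series of sterol intermediates. The transcription factor SREBP2 switches on the genes of this route. SREBP2 is made as a membrane protein of the endoplasmic reticulum, where it is bound to the escort protein SCAP. When sterols are low, SCAP carries it to the Golgi for cleavage, and when sterols are high, the INSIG proteins hold SCAP back. The liver is a main site of this synthesis. An m6A mark on a messenger RNA is read by proteins that can change its stability, splicing or translation.

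Sequence is shown for the places where an FF peak lay just after an annotated transcription start, since those peaks had no overlapping HKO peak. The lines give the 250 bases before the start, 5′ to 3′ on the strand of the gene, from RefSeq on GRCm38.p6. Capitals mark ATCACCCC, the core of a sterol regulatory element to which SREBP proteins bind, and CCAAT, the binding site of NF-Y, both searched on both strands (CCAAT reads ATTGG on the other strand). The third line is the mature miR-33-5p, whose gene Mir33 lies inside Srebf2, with its seed, bases 2 to 8, in capitals.
Srebf2, chr15:82147019-82147268, plus strand: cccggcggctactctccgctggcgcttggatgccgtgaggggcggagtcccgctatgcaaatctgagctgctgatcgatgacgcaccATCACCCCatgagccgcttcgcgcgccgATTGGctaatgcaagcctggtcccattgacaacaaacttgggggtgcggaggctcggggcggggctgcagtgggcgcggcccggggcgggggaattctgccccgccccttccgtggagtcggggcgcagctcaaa
Insig2, second listed start, chr1:121328025-121328274, minus strand: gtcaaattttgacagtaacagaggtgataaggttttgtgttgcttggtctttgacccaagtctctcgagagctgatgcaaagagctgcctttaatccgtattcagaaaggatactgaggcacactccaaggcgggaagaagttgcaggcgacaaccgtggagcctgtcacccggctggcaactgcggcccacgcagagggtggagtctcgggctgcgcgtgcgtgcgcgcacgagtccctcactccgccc
mmu-miR-33-5p, chr15:82198127-82198147, plus strand: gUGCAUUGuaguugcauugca

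The Srebf2 window held ATCACCCC 163 bases before the start and a CCAAT box 135 bases before it. ATCACCCC was found in 0.654% of all 32851 RefSeq start windows of this length, and in the window of no other member. CCAAT was found in 33.8% of all windows and, counting every listed start, in those of 7 members, all but Scap. The E-box CACGTG, a further sequence that SREBP proteins can bind, was found in 6.02% of windows and in those of Insig1 and Scap. The Insig2 window printed above held none of these 3 motifs, which says only that their letters are absent from this stretch. The core was chosen with the Srebf2 sequence in view, and all matches are descriptions of sequence.

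Of the 8 members, Srebf2 had peaks in the FF list alone, Scap, Nsdhl, Mvk, Mvd and Idi1 had peaks in the HKO list alone, and Insig1 and Insig2 had peaks in both. Over all 9650 genes with a peak, 11.2% were in the FF list alone, 13.2% in the HKO list alone and 75.6% in both. The members were named with results of these lists in view, so their counts of 1, 5 and 2 are a description and are not read against those shares. Of the 6 FF peaks, 2 overlapped an HKO peak by at least 1 bp of exon, where 74.8% of all FF peaks did so. Of the 10 HKO peaks, 2 overlapped an FF peak, where 71.5% of all HKO peaks did so. Peaks of members in a single list had no peak of the same gene in the other list to overlap. The overlap counts thus carry the same choice of members, and they too are not read against the shares. A gene missing from a list may carry m6A all the same, since peaks cannot be called on a transcript with few reads. In bulk liver RNA, fewer cells of a type and less RNA per cell cannot be told apart.

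**Figure D1:**
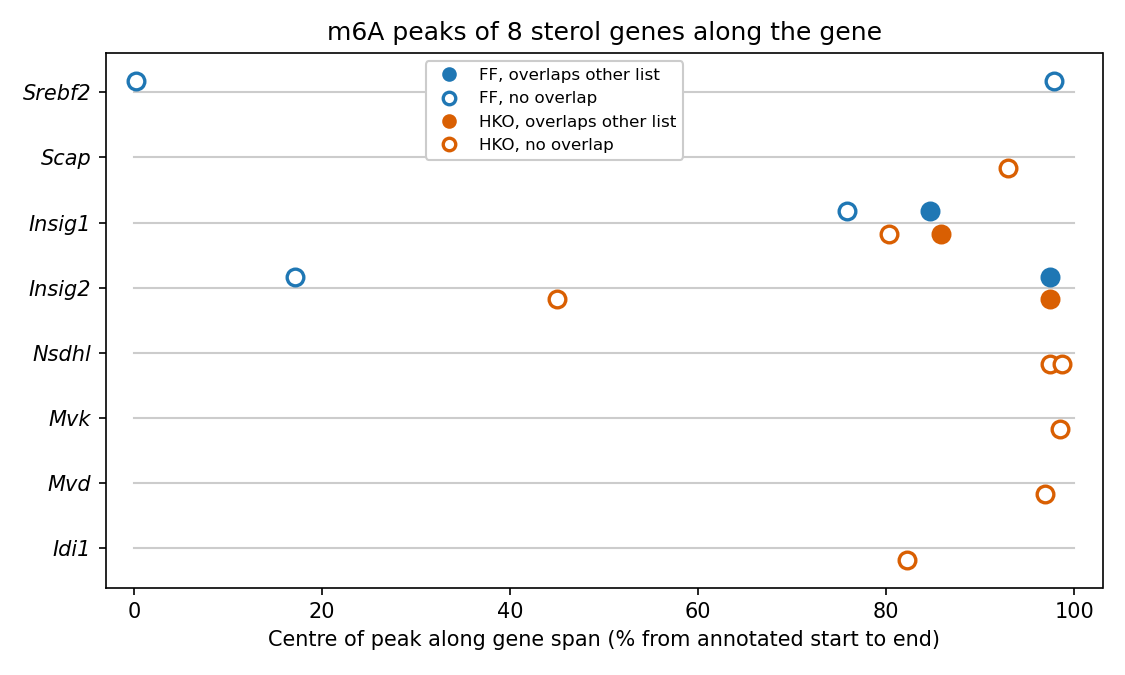
Position of each m6A peak of the 8 members along its gene. The centre of the peak is in percent of the gene span, introns included, from the annotated start (0) to the annotated end (100). Blue marks the FF list and orange the HKO list, and filled symbols are peaks that overlap a peak of the other list. Of 16 peaks, 13 lie in the last 25% of the span, and the Srebf2 peak at its start is in the FF list.

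Srebf2, which encodes the transcription factor SREBP2, spans 58111 bp on the plus strand of chromosome 15 (82147269 to 82205379, GRCm38.p6). Both of its peaks were FF peaks, and it had 0 HKO peaks. The first of the 2 ran from 82147269 to 82147478, so that it began at the first annotated base of the gene, directly after the window printed above. Its fold enrichment (IP relative to input, from the authors) was 10.2 and its log10 q was -5.13. That fold lay near the middle of the FF list, where 55.2% of peaks had a lower fold. Its q was weaker than that of most peaks, with 38.3% having a larger q. Among FF peaks without an overlapping HKO peak, 73.4% had a larger q.

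The second Srebf2 peak, of 91 bp, ran from 82204094 to 82204184 and was centred 1240 bp before the gene end. Its fold was 2.19 and its log10 q -3.50. The fold exceeded that of 4.96% of FF peaks. The pair of peaks thus stood at opposite ends of the gene, with a fold in the middle of the list at the start and a low fold towards the end. The fold of 10.2 at the start was also that of an Insig2 peak and of further FF peaks. Input reads under a peak were not examined, so whether such a fold rests on few input reads was not tested. Among the 1085 genes in the FF list alone, Srebf2 ranked 321 by its smallest q. Mir33, which encodes a microRNA known to lower the cholesterol exporter ABCA1, lies between the peaks, and the end of its miR-33-5p sequence is 5947 bp before the second one. No peak in either list carried the symbol Mir33.

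Scap, the sterol sensor that escorts SREBP proteins, spans 51662 bp on the plus strand of chromosome 9 (110333288 to 110384949). Its 1 peak, in the HKO list, ran from 110381221 to 110381400 and was centred 3639 bp before the gene end. The fold was 2.86 and the log10 q -17.8. A low fold here went with a small q. Only 8.92% of HKO peaks had a lower fold, yet 65.6% had a larger q, and among HKO peaks without an overlapping FF peak 92.2% had a larger q. Scap ranked 117 by q among the 1274 genes in the HKO list alone.

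Insig1, whose protein retains SCAP in the endoplasmic reticulum and whose gene is itself a target of SREBP2, spans 7251 bp on the plus strand of chromosome 5 (28071412 to 28078662). It had 2 peaks in each list, all between 1026 bp and 1755 bp before the gene end. The FF peaks ran from 28076848 to 28076967 (fold 1.54, log10 q -2.27) and from 28077443 to 28077651 (fold 2.17, log10 q -6.17). The HKO peaks ran from 28077115 to 28077353 (fold 3.96, log10 q -45.5) and from 28077562 to 28077710 (fold 18.7, log10 q -14.1).

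The peaks of the lists interleaved along the end of Insig1. Nearest the gene end, the FF and HKO peaks shared 90 bp, which is 43.1% of the FF peak and 60.4% of the HKO peak. The other HKO peak lay in the gap between the FF peaks, 147 bp after the first and 89 bp before the second, and overlapped neither. It had the smallest q among the 16 member peaks, and 97.4% of HKO peaks without an overlapping FF peak had a larger q. The HKO peak nearest the end had the highest fold of the 16, above 76.0% of its list, while the FF peak it overlapped was above 4.77% of its own. The folds come from separate IP reactions without replicates and give no direction of change. The whole of Insig1 lies within the annotated span of Gm35223, a long non-coding RNA gene with 0 peaks of its own, and reads of both loci may not be separable if strand was not used.

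Insig2, the second retention protein, spans 28310 bp on the minus strand of chromosome 1 (121304353 to 121332662). It had 2 peaks in each list. Towards the gene end the peaks had 1 edge in common, running from 121305012 to 121305162 in FF and to 121305132 in HKO. The HKO peak lay wholly within the FF peak, with 121 bp shared. The folds were 1.64 in FF and 1.78 in HKO, above 1.20% and 1.31% of the respective lists, and the log10 q were -13.5 and -9.62. This was the closest match between the lists among the members, with centres 15 bp apart, and in both lists a very low fold stood beside a q smaller than that of most peaks (62.4% of FF peaks and 52.3% of HKO peaks had a larger q).

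The other peaks of Insig2 did not overlap. In FF the peak ran from 121327736 to 121327916 (fold 10.2, log10 q -3.73). RefSeq lists 3 starts for Insig2, and this peak was centred 4836 bp after the start of the gene span and 198 bp after the second listed start, whose upstream sequence is printed above. Its 181 bases lay inside the window of the third listed start, so its sequence could be read. It was 71.8% G and C and held 0 matches to GGAC, the core of the usual m6A motif, on the strand of the gene. Of the 44 FF peaks that lay wholly inside a start window of their gene, 56.8% held GGAC, and their median share of G and C was 65.6%. The HKO peak joined an exon block of 36 bp (121327521 to 121327556) to one of 145 bp (121319828 to 121319972). The shorter block was 179 bp downstream of the FF peak. The fold of the HKO peak was 3.21 and its log10 q -6.71. Among the 16 member peaks this was the single one that spanned an exon junction.

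The members that encode enzymes all had HKO peaks and no FF peak, and all of these peaks lay towards the gene end. They were named with results in view, and of 19 further enzymes of sterol synthesis 14 had peaks in both lists. Of all HKO peaks, 66.4% lay in the last 25% of the gene span. Nsdhl, an oxidative decarboxylase of sterol intermediates, spans 40008 bp on the plus strand of chromosome X (72918521 to 72958528). Its stronger peak ran from 72957390 to 72957599, centred 1034 bp before the gene end, with fold 7.76 and log10 q -38.0. Of HKO peaks without an overlapping FF peak, 96.7% had a larger q, and Nsdhl ranked 56 among the 1274 genes in the HKO list alone. The weaker one ran from 72957929 to 72958049, centred 539 bp before the end, with fold 1.72 and log10 q -2.08. Nsdhl was the only one of the 5 members in the HKO list alone with more than 1 peak, which 14.1% of all genes in the HKO list alone had.

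Mvk, Mvd and Idi1 encode enzymes of the mevalonate part of the route. Mvk, mevalonate kinase, on the plus strand of chromosome 5 (114444264 to 114460591), had a peak from 114460266 to 114460413, centred 252 bp before the gene end, with fold 2.12 and log10 q -4.76. Mvd, which decarboxylates mevalonate diphosphate to isopentenyl diphosphate, on the minus strand of chromosome 8 (122433596 to 122443422), had a peak from 122433862 to 122433951, centred 310 bp before the end, with fold 1.91 and log10 q -3.77. Idi1, which interconverts isopentenyl and dimethylallyl diphosphate, on the plus strand of chromosome 13 (8885606 to 8892396), had a peak from 8891112 to 8891262, centred 1209 bp before the end, with fold 2.17 and log10 q -1.97.

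These 3 peaks had folds of about the same size and a weaker q than those of Scap or the stronger Nsdhl peak. By q, Mvk ranked 490, Mvd 625 and Idi1 1177 among the 1274 genes in the HKO list alone, whose median smallest log10 q was -3.73. The Idi1 peak was close to the limit of the list, where the weakest peak had a log10 q of -1.41 and 2.89% of peaks had a larger q than Idi1. At a q of 1e-05 or less, none of the 3 was left, and the HKO list alone held Scap and Nsdhl.

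**Figure D2:**
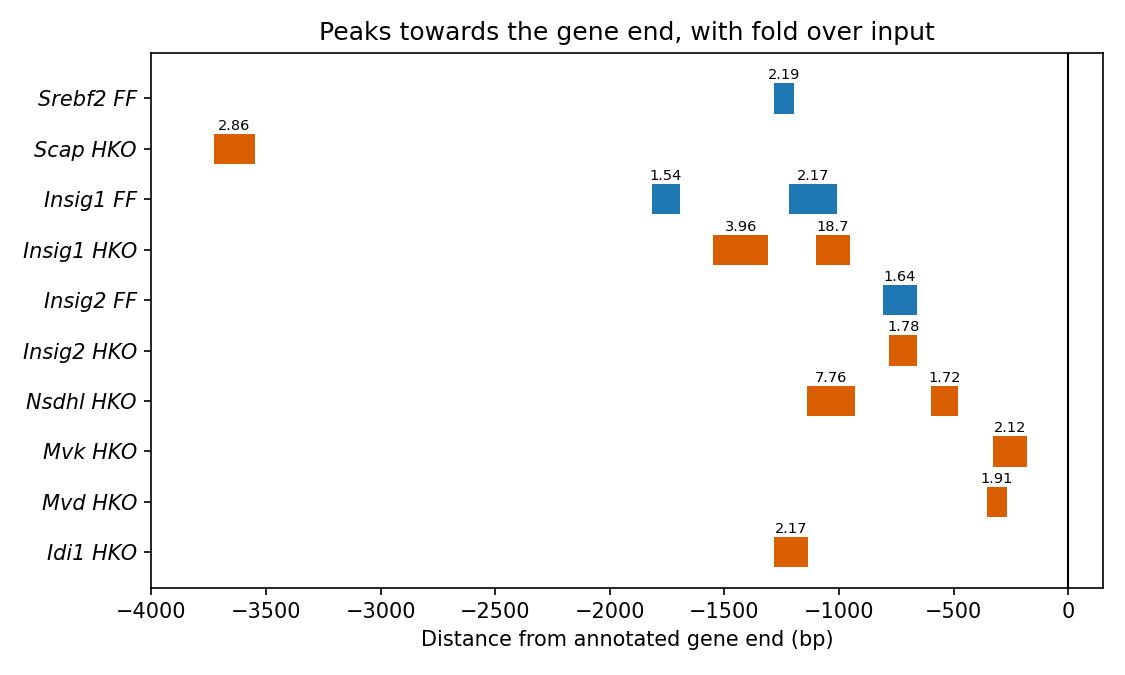
Peaks centred within 4000 bp of the annotated gene end, drawn to scale by distance from the end (bp, 0 is the end), with blue bars for the FF list and orange bars for the HKO list, and the fold of IP over input above each bar. Insig1 and Insig2 are the members with bars in both lists, and of 13 bars only those of Insig1 (18.7) and Nsdhl (7.76) in the HKO list exceed a fold of 4.

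Peaks of the members had low folds. The median was 2.18 over the 6 FF peaks (1.54 to 10.2) and 2.515 over the 10 HKO peaks (1.72 to 18.7), where all peaks had medians of 8.80 and 10.4. Below the median of their own list were 4 of the 6 FF peaks and 9 of the 10 HKO peaks. A fold under 3, a limit set after the values were seen, was found in 4 of the 6 FF peaks and 6 of the 10 HKO peaks, where 12.3% of all FF peaks and 9.99% of all HKO peaks were that low. All peaks within 1000 bp of a gene end had a median fold of 6.66 in FF and 8.99 in HKO. The member peaks in that window had a fold of 1.64 in FF (Insig2) and of 1.72 to 2.12 in HKO (Insig2, Nsdhl, Mvk and Mvd). The other 5 member peaks with a fold under 3 lay farther from the end, and whether position bears on the low folds was not tested. The FF peaks above 10 were those at the Srebf2 start and after the second Insig2 start, and the HKO peak above 10 was that of Insig1.

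The peaks were also short. All 16 were shorter than the median peak of their list, at 90 to 239 bp of exon against medians of 241 bp in FF and 269 bp in HKO. Peaks without an overlap in the other list had a median of 151 bp in both lists, and 12 of the 16 member peaks were of that kind. A q of 1e-05 or less was reached by 3 of the 6 FF peaks and 6 of the 10 HKO peaks, where 62.3% and 65.5% of all peaks reached it. The median log10 q of member peaks was -4.43 in FF, against -7.79 over all FF peaks, and -8.165 in HKO, against -8.7. By strength of evidence the FF member peaks thus lay towards the weak side, with 8.12% to 62.4% of their list having a larger q. The HKO member peaks were spread across their list, at 2.89% to 82.6%. Folds and lengths lay at the low side in both lists.

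**Figure D3:**
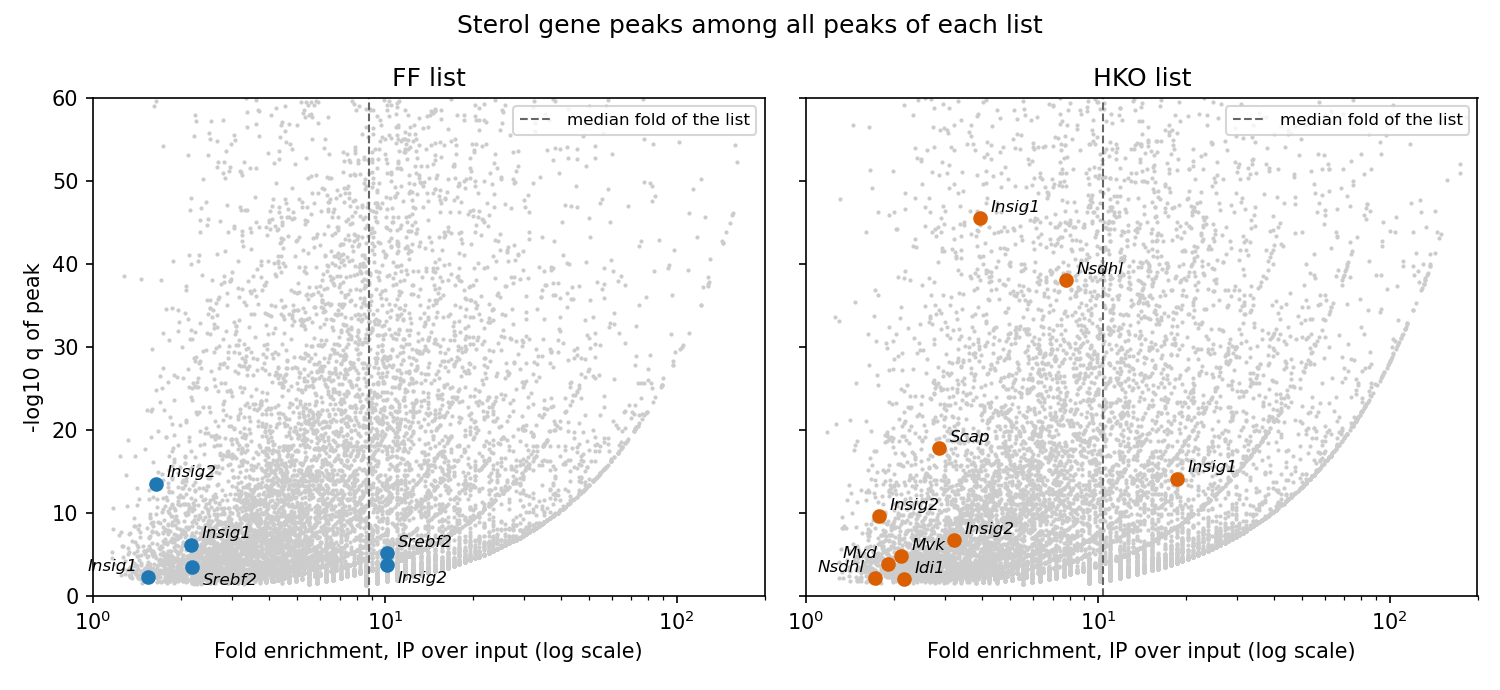
Fold enrichment over input (log scale) against -log10 q for every peak of the FF list (left) and the HKO list (right), with all peaks in grey, member peaks in colour and the median fold of the list as a dashed line. The axes end at a -log10 q of 60 and a fold of 200, and peaks beyond are not drawn. Of the member peaks, 4 of 6 in FF and 9 of 10 in HKO lie left of the line.

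Along the gene, 1 of the 6 FF peaks (Srebf2) and 0 of the 10 HKO peaks were centred within 500 bp of the start of the gene span, where 15.0% of all FF peaks and 7.38% of all HKO peaks were. Counting the nearest listed start in place of that of the whole span gave 2 FF peaks, since the Insig2 peak was added, and 0 HKO peaks. These distances run along the genome, introns included. By that measure the HKO peak of Insig2 across an exon junction was centred 7760 bp after a listed start. Its shorter block (121327521 to 121327556) lay just downstream of the third listed start, at 121327678. The count of 0 HKO peaks thus rests on counting the intron, and distance along the transcript was not measured. Within 1000 bp of the gene end were 1 FF peak (Insig2) and 4 HKO peaks (Insig2, Nsdhl, Mvk and Mvd), where 26.6% and 31.0% of all peaks were. This count depended on the limits, with 1 FF and 1 HKO peak left at a q of 1e-05 or less, 0 and 1 at a fold of 2 or more, and 0 and 2 in a window of 500 bp. A further group lay just outside that window, namely the 3 Insig1 peaks between 1026 bp and 1428 bp, the stronger Nsdhl peak, and those of Srebf2 and Idi1. In the last 25% of the span were 4 of 6 FF peaks and 9 of 10 HKO peaks, where 58.9% and 66.4% of all peaks were. Whether these positions are in coding sequence or a 3′ UTR was not analysed here, since only gene spans were used.

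The rest of the route was read from 47 other genes, of which 41 had a peak. Of these, 37 had peaks in both lists, 1 in the FF list alone and 3 in the HKO list alone. Over all genes with a peak the shares were 75.6%, 11.2% and 13.2%. On these genes 49 of 60 FF peaks overlapped an HKO peak, where 74.8% of all FF peaks did so. Of their 70 HKO peaks, 51 overlapped an FF peak, where 71.5% of all HKO peaks did so. The members stood at 6 of 8 genes in a single list and the other genes at 4 of 41, a contrast that the naming of the members with results in view can set.

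Among 19 further enzymes of sterol synthesis, 14 had peaks in both lists. Acat2, which condenses acetyl-CoA at the first step, had a peak in the HKO list alone (fold 1.5, log10 q -1.83), centred 726 bp before the gene end. Tm7sf2, a sterol reductase, had a peak in the FF list alone (fold 3.13, log10 q -3.52), centred 59 bp after the gene start. Fdps, Idi2 and Lbr had no peak. The low folds seen in the members were found here too, with medians of 3.13 over 19 FF peaks and 4.19 over 27 HKO peaks, and 8 and 7 peaks under a fold of 3.

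Among 12 further genes of SREBP control, 10 had peaks in both lists. Srebf1, which encodes the related factor SREBP1, had a peak in the HKO list alone (fold 2.69, log10 q -3.54), centred 15044 bp after the start and 10058 bp before the end of the gene. Mbtps2, the protease that makes the second cut in SREBP proteins, had no peak. The median folds of this group were 7.91 in FF and 8.065 in HKO.

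Among 16 genes of cholesterol uptake, storage and export, 13 had peaks in both lists. Nr1h2, which encodes the oxysterol receptor LXR beta, had a peak in the HKO list alone (fold 2.98, log10 q -7.30), centred 148 bp before the gene end. Soat1, an enzyme that esterifies cholesterol, and Stard4, a cholesterol carrier, had no peak. The median folds were 6.09 in FF and 14.8 in HKO. Of the 4 genes in a single list outside the members, Nr1h2 alone had a q of 1e-05 or less.

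**Figure D4:**
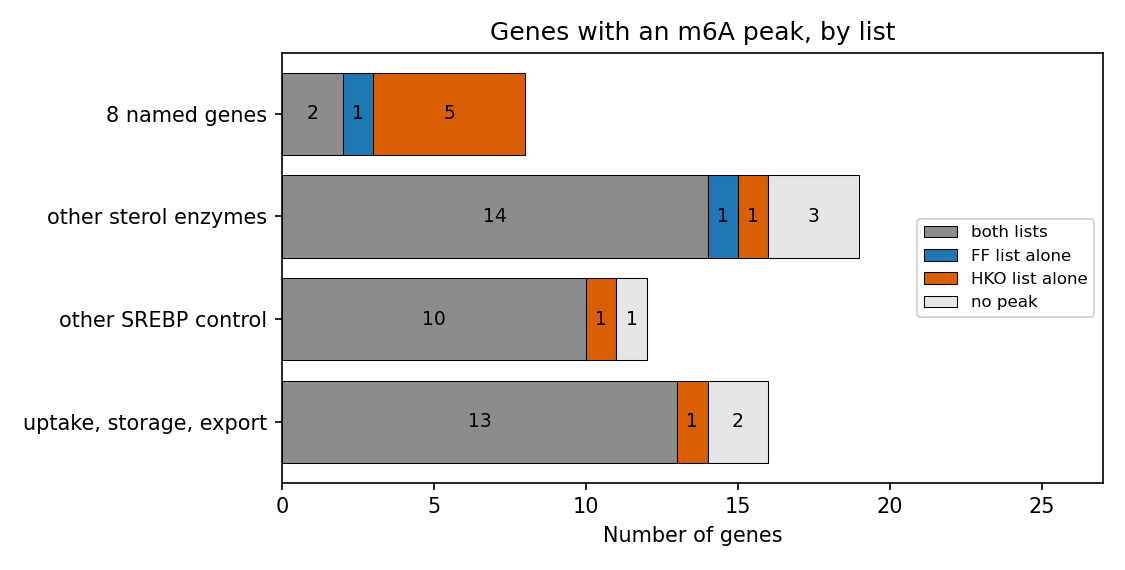
Number of genes with an m6A peak in both lists (dark grey), the FF list alone (blue), the HKO list alone (orange) or neither (light grey), for the 8 members and 3 groups of other genes of cholesterol metabolism. The members hold 6 genes in a single list and the other groups 2, 1 and 1.

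Over the whole data set there were 14057 FF peaks (8376 genes) and 14693 HKO peaks (8565 genes), from libraries of unknown depth. The targeted gene, Alkbh5, carried 3 FF peaks and 0 HKO peaks, which does not measure its RNA. Of 8 hepatocyte markers, 5 had a peak in FF and 6 in HKO, with Asgr1 in neither. Markers of endothelial cells and of Kupffer cells had peaks in 3 of 4 genes each in both lists. Those of stellate cells and fibroblasts, taken as 1 group, had peaks in 1 of 4 in FF and 3 of 4 in HKO. Those of cholangiocytes and of leukocytes each had peaks in 0 of 4 in FF and 1 of 4 in HKO. Peak lists hold no RNA level of any marker, and the part of other cell types in these peaks was not tested.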

How the data were processed

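MeRIP-seq compared IP with input in pooled liver RNA, 300 μg from 3 mice per genotype, in fragments of about 100 nt sequenced as paired reads of 150 bp, per the labels. The sample protocols name a Millipore antibody and a NuGEN kit, and the series design text a Synaptic Systems antibody and a New England Biolabs kit, so strandedness is unsettled. The authors called peaks per genotype with exomePeak 2.16.0 at a q of 0.05, as the series design text states. Build GRCm38.p6 and the tools BWA 0.7.12, fastp 0.19.11 and HOMER 4.9.1 are named in the submitters' processing notes.

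The deposited fold is a ratio, IP to input, that the authors' peak caller gave. The score column of the deposited lists held the p-value of each peak, and the log10 q is a deposited score with no lower bound. They describe peaks within a list, and ranks are within a list.

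Here, peaks were called overlapping if exon blocks shared at least 1 bp on the same strand. Distances run along the genome, introns included, from the centre of a peak's exonic bases to the ends of the RefSeq gene span (GRCm38.p6). The span matched 8 of 8 members, while 9 FF and 6 HKO peaks of all genes had no span. Coordinates count from base 1. Python 3.11.15, pandas 2.3.3, numpy 2.4.6 and matplotlib 3.10.9 were used, and overlap calls were tested on simulated peaks.

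All 8 members are named, and of the wider list the genes in 1 list alone or without a peak. Members and lists were chosen with earlier results of these data known. Alternatives were a q of 1e-05, a fold of 2, lists of equal length, other overlaps and other windows. The planned GGAC count over all peaks and the regions of the transcript were not run, since no genome or transcript models were used.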

Additional observations from a re-analysis of the deposited data

How the results depend on the processing

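With 1 pool per genotype, no value has a replicate check, and list lengths depend on depths that are unknown. No paired analysis was possible because each genotype was a single pool without replicate numbers.

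With q limited to 1e-05 or less, members in the HKO list numbered 4 and in the HKO list alone 2, HKO member peaks at a gene end 1, and other pathway genes in the FF list alone 0. Over all genes, 9.65% were then in the FF list alone and 15.8% in the HKO list alone. At a fold of 2 or more, which removed Mvd, member peaks overlapping the other list numbered 1 in FF and 1 in HKO, those at a gene end 0 in FF and 1 in HKO, and other pathway genes in a single list 2 (FF) and 5 (HKO). With an overlap of at least 50% of each peak, 1 FF and 1 HKO peak overlapped, the Insig2 pair. With windows of 200 bp and 500 bp, 0 FF and 2 HKO peaks lay at a gene end. The nearest listed start, chosen after seeing the data, gave 2 FF start peaks. With lists of equal length, all counts stayed within 1.5 times of those reported, and Idi1 had no peak. Srebf2 remained in the FF list alone, and Scap and Nsdhl in the HKO list alone, at each of the settings of q, fold and length.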
